A study of Rattus norvegicus with 10 samples.

Results

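The sinusoidal endothelial cell genes followed here were Stab2, Lyve1, Fcgr2b, Kdr, Flt1, Tek, Eng, Pecam1, Cdh5 and Vwf. They were listed by symbol, and their probes were found through the RefSeq accession that each array probe carries. Of the 10 genes listed, 8 had at least 1 probe named in this way, among 13837 genes so named in all. They had 11 probes, of which 9 passed the filter on dim probes, and all 8 genes were tested. For Vwf 1 probe was named, only by the symbol column of the study's list of changed probes, so Vwf is described apart from the other 8. That list holds only probes that differed between SM and control, so a Vwf probe that did not differ could not be found. No probe was named for Stab2, and it was not analysed here.

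Gene expression was measured in whole liver of male Sprague Dawley rats on one-colour Agilent Whole Rat Genome arrays, with 1 array per rat, and the age of the rats is not given in the sources used here. Sulfur mustard (SM) is a vesicant that alkylates DNA and protein, and MSTF is a mixture of salvianolic acids and total flavonoids from a pair of medicinal plants. The 3 control rats were injected under the skin with the propylene glycol solvent alone, and the 4 SM rats received a single injection of 3.5 mg/kg SM in that solvent, which is 0.7 of the LD50. The 3 SM + MSTF rats received the same SM injection and, 1 h later, 120 mg/kg MSTF in water by stomach tube. The livers were taken 24 h after SM. The comparisons therefore ask whether SM altered the RNA level of these genes in the liver, and whether the level in rats given MSTF after SM differed from that in rats given SM alone or the solvent. Changes after SM and after SM + MSTF are relative to control throughout, and the difference of SM + MSTF from SM is written as MSTF over SM.

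Sinusoidal endothelial cells line the capillaries between the plates of hepatocytes. They are pierced by fenestrae, rest on no organized basement membrane, and clear waste macromolecules from the blood through scavenger and Fc receptors such as the products of Stab2, Lyve1 and Fcgr2b. Their survival and their open, fenestrated state depend on vascular endothelial growth factor (VEGF), which acts through the receptors encoded by Kdr and Flt1, while Tek and Eng encode receptors for angiopoietins and for ligands of the BMP9 family. Pecam1 and Cdh5 encode proteins of endothelial junctions, and the clotting protein encoded by Vwf is known mainly from larger vessels and platelets. In bulk liver RNA, fewer cells of a type and less RNA per cell cannot be told apart.

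The liver RNA carried hepatocyte RNA as labelled: all 10 hepatocyte markers were tested, and the probe of Alb (albumin) read between 18.01 and 18.30 log2 on the 10 arrays. Signals are log2 values of the background-subtracted, quantile normalized intensity, and levels of different probes cannot be set against each other. Of all probes, 51.9% to 58.6% stood well above background in control, 57.3% to 61.4% in SM and 53.4% to 57.9% in SM + MSTF, and the dimmest signal to do so lay between 3.77 and 4.82 log2 over the 10 arrays. The 3 control arrays and SM + MSTF replicate 3 were on the slide called slide 1 here, the 4 SM arrays were on slide 2, and SM + MSTF replicates 1 and 2 were on slide 3. SM and slide 2 cannot be told apart.

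None of the 8 tested genes was called changed in any of the 3 comparisons, at a Benjamini-Hochberg adjusted p under 0.05 and a change of at least 1.5-fold in limma. After SM the background was 2.41% of all 22991 probes tested, after SM + MSTF it was 0%, and for MSTF over SM it was 1.26%. The lowest adjusted p of the 8 genes in limma was 0.268 after SM, 0.589 after SM + MSTF and 0.430 for MSTF over SM. At an unadjusted p under 0.05, limma picked 1 of the 8 genes, Cdh5, after SM, where 16.4% of all probes passed, and 0 in the other comparisons, where 9.54% (after SM + MSTF) and 15.9% (MSTF over SM) passed. The t-test of the study's methods, at an unadjusted p under 0.05 and 1.5-fold, called 0 of the 8 genes in each comparison, against 4.92% of all probes after SM, 1.24% after SM + MSTF and 3.75% for MSTF over SM. For 0 of the 8 genes did the SM and control arrays separate without overlap, against 18% of all probes. For 1 gene, Flt1, every SM + MSTF array was above every control array, while 15.4% of all probes separated in either direction, and for 0 genes did the SM + MSTF and SM arrays separate, against 14.7% of all probes.

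The fitted changes of the 8 genes lay between -0.17 and 0.32 log2 units in all comparisons. After SM, 5 were fitted higher and 3 lower, with a median log2 fold change of 0.02 and a range of -0.07 to 0.32, while the median over all probes tested was 0.03. After SM + MSTF, again 5 were higher and 3 lower, with a median of 0.07 and a range of -0.17 to 0.27, beside 0.0046 over all probes. For MSTF over SM, 2 were higher and 6 lower, with a median of -0.05 and a range of -0.17 to 0.14, beside -0.02 over all probes. The comparisons share arrays, so these 3 sets of values are not independent of each other. Regardless of sign, the median size of the change was 0.07 after SM, 0.15 after SM + MSTF and 0.09 for MSTF over SM, against 0.16, 0.14 and 0.17 over all probes.

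**Figure D1:**
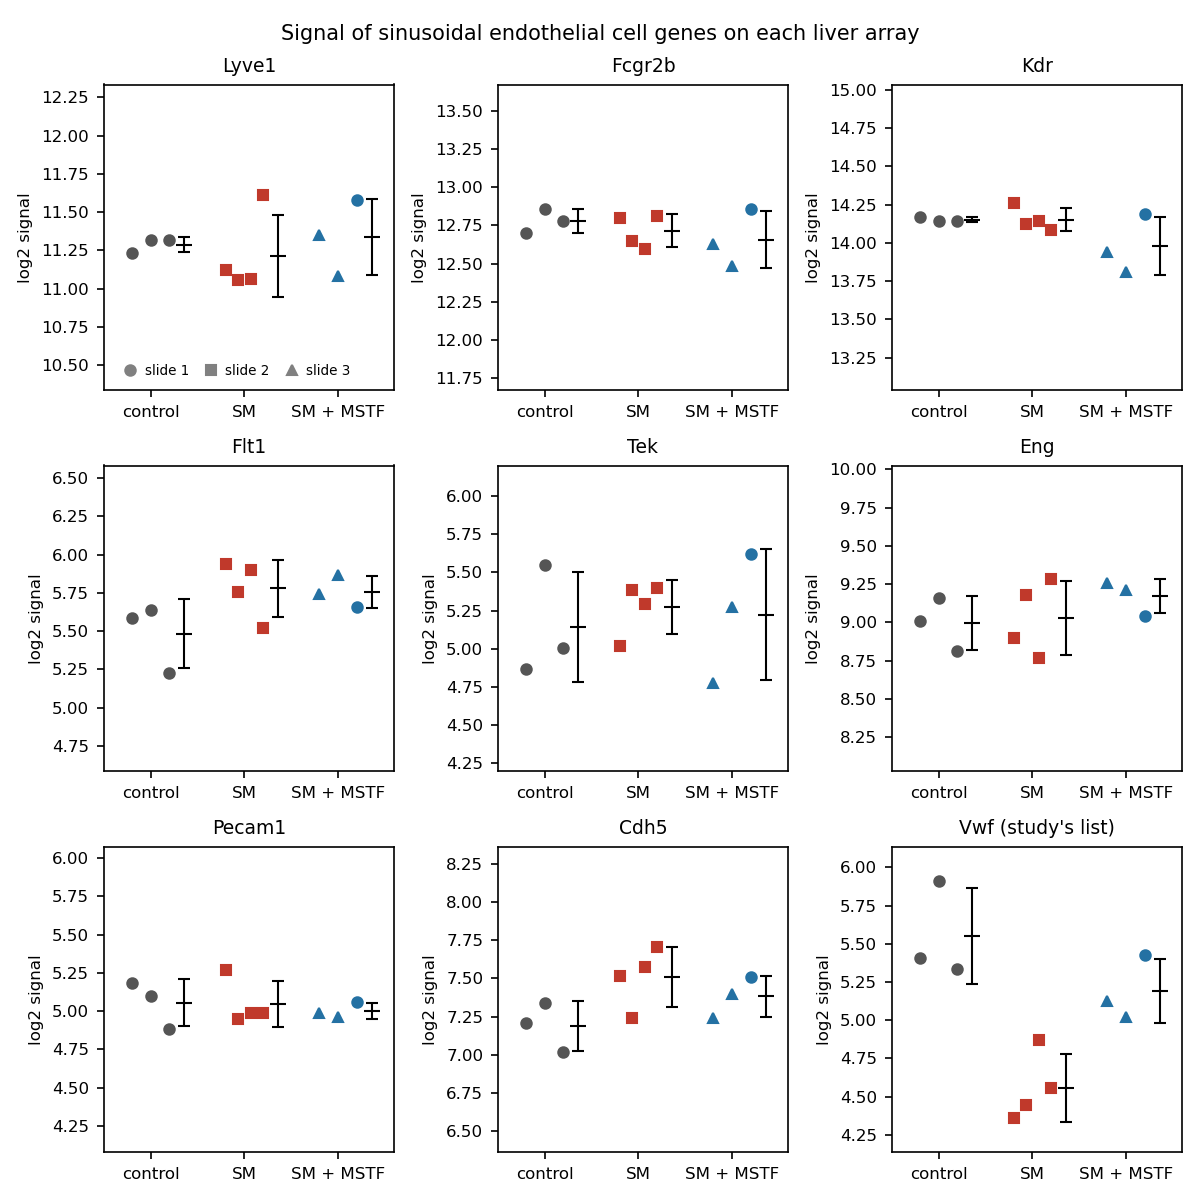
Log2 signal (vertical axis, each panel 2 log2 units high) of the highest-signal probe of each gene on the control, SM and SM + MSTF arrays, with 1 point per array, the marker shape giving the slide, and the bar beside each group giving its mean ± SD. The groups overlap for every gene shown except Flt1 after SM + MSTF and Vwf, for which the 4 SM arrays lie below the other 6.

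The uptake receptors of the sinusoidal wall did not pass the test. Lyve1 encodes a hyaluronan receptor carried by sinusoidal and lymphatic endothelium. Its brighter probe read 11.23, 11.32 and 11.32 log2 on the control arrays, 11.12, 11.06, 11.06 and 11.61 on the SM arrays, and 11.35, 11.08 and 11.58 on the SM + MSTF arrays. Of the SM arrays, 3 were below all controls and SM replicate 4 was above them, so the groups overlapped. The fitted log2 fold change was -0.07 ± 0.16 (SE, 4 SM and 3 control arrays) after SM, 0.95-fold with a 95% confidence interval of 0.739 to 1.22-fold (limma, adjusted p = 0.866). Without SM replicate 4 it was -0.21. After SM + MSTF it was 0.05, within slide 1 it was 0.29, and for MSTF over SM it was 0.12. The second, dimmer Lyve1 probe differed in sign in 2 of the 3 comparisons, with 0.24 after SM, 0.10 after SM + MSTF and -0.14 for MSTF over SM, and it was not called either. Both probes were at their highest in the SM group on SM replicate 4.

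Fcgr2b encodes the inhibitory Fc gamma receptor through which sinusoidal endothelial cells take up small immune complexes, and B cells and macrophages carry it too. It read 12.70, 12.86 and 12.78 log2 in control, 12.80, 12.65, 12.60 and 12.81 in SM, and 12.63, 12.49 and 12.86 in SM + MSTF. SM + MSTF replicate 2 gave the lowest value of the 10 arrays and SM + MSTF replicate 3 was as high as the highest control. The log2 fold change was -0.06 after SM (0.956-fold, interval 0.805 to 1.14), -0.12 after SM + MSTF and -0.06 for MSTF over SM, with a limma adjusted p of 0.822, 0.764 and 0.820. Within slide 1, SM + MSTF replicate 3 was 0.08 above the control mean. Markers of the other carriers of Fcgr2b were read beside it. Of the 8 Kupffer cell markers tested of 10 listed, all 8 were fitted lower after SM (-0.60 to -0.04) and all 8 higher after SM + MSTF (0.0064 to 0.41) and for MSTF over SM (0.27 to 0.96), and 0 were called in any of these. Their mean log2 signal ran from 10.92 to 11.16 in control, from 10.44 to 11.24 in SM and from 11.24 to 11.30 in SM + MSTF. Of the B cell markers, Cd79b read 6.02 to 6.65 log2 in control and 3.57 to 5.04 in SM, where only 2 of the 4 arrays stood well above background, and it was not called (limma, adjusted p = 0.125), and Cr2 never stood well above background. The part of these cells in the Fcgr2b signal was not tested.

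Neither VEGF receptor gene passed the test in any comparison. Kdr encodes VEGF receptor 2, the main signalling receptor for VEGF in endothelium. It read 14.17, 14.14 and 14.14 log2 in control, 14.26, 14.12, 14.14 and 14.08 in SM, and 13.94, 13.81 and 14.19 in SM + MSTF. The SM mean of 14.15 ± 0.076 (SD of 4 arrays) equalled the control mean of 14.15 ± 0.014 (SD of 3 arrays) to 2 decimals, and the interval of the change ran from 0.852 to 1.17-fold, the narrowest of the 8 genes. In SM + MSTF the log2 fold change was -0.17 against control (0.888-fold, interval 0.748 to 1.05) and -0.17 against SM (limma, adjusted p = 0.650 and 0.430). The SM + MSTF arrays on slide 3 were the lowest 2 of the 10, and SM + MSTF replicate 3, on slide 1 with the controls, was above all 3 of them. Within slide 1 the difference between that array and the controls was 0.04.

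Flt1 encodes VEGF receptor 1, which binds VEGF tightly and also circulates as a soluble form. Its brighter probe read 5.58, 5.64 and 5.23 log2 in control, 5.94, 5.76, 5.90 and 5.52 in SM, and 5.74, 5.87 and 5.66 in SM + MSTF. Of the SM arrays, 3 were above all controls, and all 3 SM + MSTF arrays were above all controls. The log2 fold change was 0.29 ± 0.14 (SE) after SM, 1.23-fold with an interval of 0.990 to 1.52-fold, and 0.27 ± 0.15 after SM + MSTF, 1.21-fold with an interval of 0.961 to 1.52-fold (limma, adjusted p = 0.329 and 0.589). Neither passed the test. Between SM + MSTF and SM the difference was -0.02. Within slide 1, SM + MSTF replicate 3 exceeded the controls by 0.17. A second Flt1 probe was well above background on 6 of the 10 arrays and was not tested. On all 10 arrays the tested probe was well above background, between 0.81 and 2.03 log2 units above the lowest signal well above background.

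Tek encodes Tie2, the angiopoietin receptor that keeps endothelium quiescent. It read 4.87, 5.55 and 5.01 log2 in control, 5.02, 5.38, 5.29 and 5.40 in SM, and 4.78, 5.28 and 5.62 in SM + MSTF, and it was well above background on 9 of the 10 arrays. The spread within control and within SM + MSTF covered the whole SM range. Fitted log2 fold changes of Tek were 0.13 after SM, 0.08 after SM + MSTF and -0.05 for MSTF over SM (limma, adjusted p = 0.818, 0.932 and 0.925). The residual SD of Tek, 0.32, was the highest of the 8 genes, and its intervals were the widest, with 0.779 to 1.54-fold after SM and 0.735 to 1.53-fold after SM + MSTF. Within slide 1, SM + MSTF replicate 3 was 0.48 above the control mean, against 0.08 over all SM + MSTF arrays. A second Tek probe was well above background on 1 array, in SM + MSTF, and was not tested. This dim probe read 4.36 to 5.07 log2 in control, 3.79 to 4.28 in SM and 4.00 to 4.57 in SM + MSTF. Its SM arrays thus lay below all controls, while the tested probe was fitted higher after SM.

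Eng encodes endoglin, a co-receptor for BMP9 and TGF-beta on endothelium. It read 9.01, 9.16 and 8.81 log2 in control, 8.90, 9.18, 8.76 and 9.29 in SM, and 9.26, 9.21 and 9.04 in SM + MSTF. The SM arrays spread beyond the controls at both ends. Fitted log2 fold changes of Eng were 0.04 after SM (1.03-fold, interval 0.818 to 1.29), 0.18 after SM + MSTF (1.13-fold, interval 0.889 to 1.44) and 0.14 for MSTF over SM, with a limma adjusted p of 0.929, 0.740 and 0.643. Within slide 1 the difference of SM + MSTF replicate 3 from control was 0.05.

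Neither junction gene passed the test. Pecam1 encodes an adhesion molecule at endothelial contacts that platelets and leukocytes also carry. It read 5.18, 5.10 and 4.89 log2 in control, 5.27, 4.95, 4.99 and 4.99 in SM, and 4.99, 4.96 and 5.06 in SM + MSTF. SM replicate 1 stood above the other SM arrays and above all controls. For Pecam1 the fitted values were a log2 fold change of -0.0097 after SM (0.993-fold, interval 0.836 to 1.18), -0.05 after SM + MSTF and -0.04 for MSTF over SM, and within slide 1 it was 0.0036. Its probe was between 0.28 and 1.36 log2 units above the lowest signal well above background.

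Cdh5 encodes VE-cadherin, the cadherin that holds endothelial cells together. It read 7.21, 7.34 and 7.02 log2 in control, 7.52, 7.24, 7.57 and 7.71 in SM, and 7.24, 7.40 and 7.51 in SM + MSTF. Of the SM arrays, 3 were above all controls and SM replicate 2 lay among them. The log2 fold change of 0.32 ± 0.13 (SE) after SM, 1.25-fold with an interval of 1.02 to 1.53-fold, was the largest of the 8 genes in that comparison, and it did not pass after adjustment over all probes (limma, adjusted p = 0.268). After SM + MSTF it was 0.19 (limma, adjusted p = 0.691), and within slide 1 it was 0.32. For MSTF over SM it was -0.13.

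**Figure D2:**
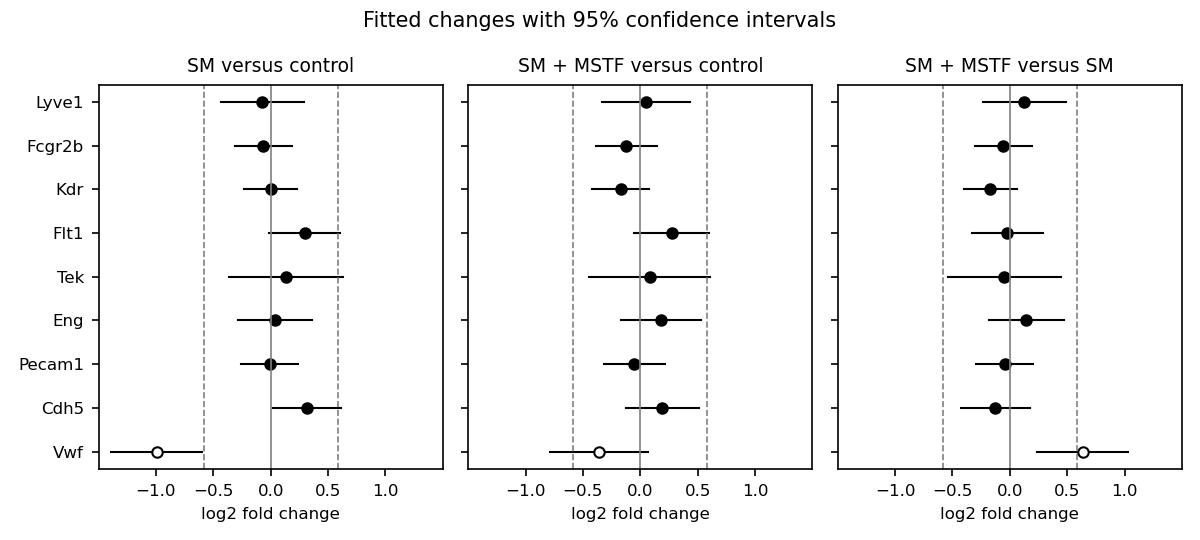
Fitted log2 fold change (horizontal axis) with its 95% confidence interval for each gene, with 1 panel for each comparison, the 1.5-fold minimum as dashed lines, and Vwf, named by the study's list only, as an open point. The points of the 8 other genes lie between -0.17 and 0.32, and their intervals reach past the dashed lines for Flt1 and Tek after SM and after SM + MSTF and for Cdh5 after SM.

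A p that misses the threshold does not show that a gene was unchanged, and the intervals give the range of changes left by these 10 arrays. After SM, 5 of the 8 intervals lay wholly within 1.5-fold in either direction, beside 60.1% of all probes, and after SM + MSTF 6 of 8 did, beside 59.6%. For MSTF over SM all 8 did, beside 58.5%. The exceptions were Flt1, Tek and Cdh5 after SM and Flt1 and Tek after SM + MSTF, and each reached past 1.5-fold on the high side. The residual SD had a median of 0.18 log2 units over the 8 genes and 0.20 over all probes.

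The arrays were also compared over the 8 genes at once. Taking each gene relative to its control mean, the median of the 8 was 0.06, 0.0097, -0.04 and 0.15 log2 units on the 4 SM arrays and -0.0067, 0.02 and 0.12 on the 3 SM + MSTF arrays, while the control arrays themselves gave 0.02, 0.11 and -0.15. The SM and SM + MSTF medians thus fell within or near the range of the control arrays. On SM + MSTF replicate 3, the only array of its group on slide 1, all 8 genes were above their control mean, while on SM + MSTF replicates 1 and 2, on slide 3, 4 of the 8 were. The part of the slide in this difference was not tested.

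**Figure D3:**
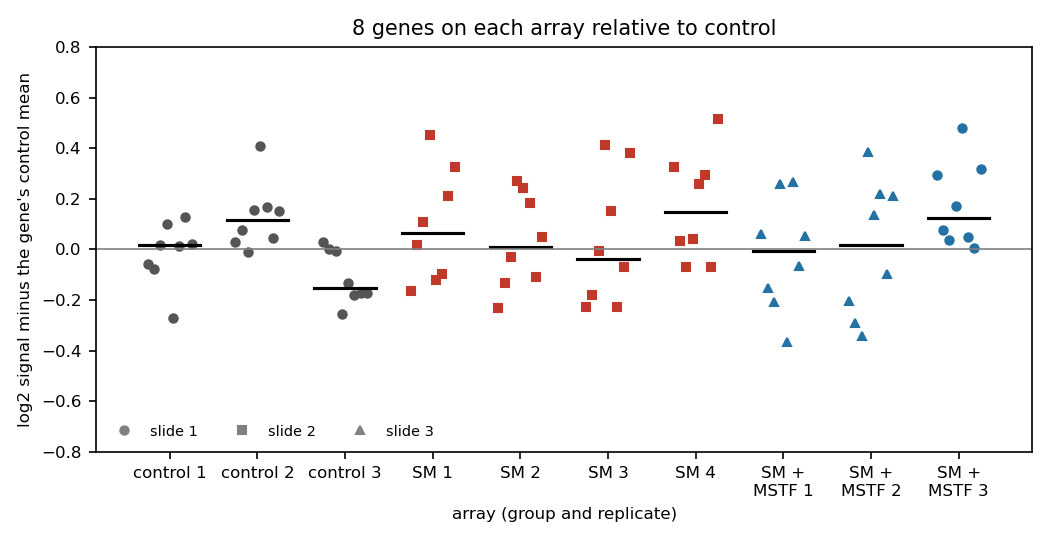
Log2 signal of each of the 8 genes minus its control mean (vertical axis) on each of the 10 arrays (horizontal axis), with 1 point per gene, marker shape giving the slide, colour the group, and a black bar for the median of the 8. The array medians run from -0.15 on control replicate 3 to 0.15 on SM replicate 4, and SM + MSTF replicate 3 has all 8 points above 0.

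Vwf encodes von Willebrand factor, which endothelial cells and megakaryocytes store and release to bind platelets. The probe read 5.41, 5.91 and 5.33 log2 in control, 4.36, 4.44, 4.87 and 4.55 in SM, and 5.12, 5.02 and 5.43 in SM + MSTF. All 4 SM arrays lay below all control and all SM + MSTF arrays, and the SM + MSTF arrays overlapped the controls. The log2 fold change was -0.99 ± 0.18 (SE) after SM, 0.502-fold with an interval of 0.381 to 0.661-fold (limma, adjusted p = 0.025). The study put this probe on its list because it differed between these SM and control arrays, so the value is a description and no independent evidence of its direction. Against the same SM arrays, SM + MSTF was 0.63 higher on the log2 scale (1.55-fold, interval 1.18 to 2.04) and was not called (limma, adjusted p = 0.140). Selecting a probe that was low on these SM arrays favours a higher value in any group set against them. The difference of SM + MSTF from SM is therefore a description too. Against control, SM + MSTF was -0.36 (limma, adjusted p = 0.582) and, within slide 1, -0.12. The probe was well above background on all 10 arrays but only 0.45 to 1.33 log2 units above the lowest such signal.

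With normexp background correction, which added an offset of 50 to every intensity, the log2 fold change of Vwf after SM was -0.32 (limma, adjusted p = 0.0865). An added offset shrinks the log2 changes of dim probes such as this, so -0.32 cannot be set against the other values. With each array left out in turn the log2 fold change of Vwf stayed between -1.10 and -0.81. The limma adjusted p rose to between 0.0535 and 0.0889 without control replicate 1, 2 or 3 or SM replicate 1, 2 or 4. With slide as a random block it was -0.97 (limma, adjusted p = 0.0819) and with the replicate number as a block -0.99 (limma, adjusted p = 0.0875), and the SM arrays share slide 2 with no other group. Platelets and megakaryocytes also carry Vwf. Of the platelet and megakaryocyte markers, 4 of 8 listed were tested, all 4 were fitted higher after SM (0.09 to 1.02), and 0 were called. Their mean log2 signal, over the 6 with a probe, ran from 5.78 to 6.35 in control, from 6.34 to 6.48 in SM and from 6.30 to 6.60 in SM + MSTF. Their part in the Vwf value was not tested. Pf4, encoding platelet factor 4, had the highest of these changes, at 1.02 after SM (limma, adjusted p = 0.0733).

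Pathway partners of the receptors, other endothelial genes, markers of other liver cells and housekeeping genes were followed as 13 lists. None of the lists holds the 8 genes, and the shares below pool all of them. Of 140 genes listed, 117 had a named probe and 98 were tested, and limma called 0 of them in each of the 3 comparisons. At an unadjusted p under 0.05 limma picked 13 after SM (13.3%, against 16.4% of all probes), 8 after SM + MSTF (8.16%, against 9.54%) and 13 for MSTF over SM (13.3%, against 15.9%). The methods' t-test called 7 (7.14%, against 4.92%), 1 (1.02%, against 1.24%) and 2 (2.04%, against 3.75%).

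Of the ligands and partners of the VEGF and angiopoietin receptors, 8 of 12 were tested, 2 were fitted higher and 6 lower after SM, and the median was -0.11. The VEGF ligand genes Vegfa, Vegfb and Vegfc are given because their probes had the highest signal in the list. Vegfa read 12.46, 12.11 and 11.97 log2 in control, 12.56, 12.18, 12.66 and 12.32 in SM, and 12.29, 12.20 and 12.11 in SM + MSTF. Its change was 0.25 after SM and -0.23 for MSTF over SM, and Vegfb gave 0.21 and -0.23. Vegfc, a ligand mainly of the receptor encoded by Flt4, gave -0.13 and 0.09. None of these passed the test, and the lowest adjusted p of the list in limma was 0.370 after SM and 0.143 for MSTF over SM, both for Flt4.

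Of the BMP9 and TGF-beta receptor pathway, to which endoglin belongs, 13 of 15 genes were tested, 8 were fitted higher and 5 lower after SM, and the median was 0.02. After SM + MSTF 10 were higher and 3 lower, with a median of 0.14. Id3, a target of BMP signalling, read 11.73, 11.72 and 12.25 log2 in control, 12.34, 11.71, 11.61 and 11.95 in SM, and 12.38, 12.30 and 11.80 in SM + MSTF, with 0.01 after SM. Further Id3 probes gave 0.01 and -0.07 after SM. Smad1, which carries the BMP signal to the nucleus, gave 0.26 after SM and 0.14 after SM + MSTF. Bmp2, a ligand that sinusoidal endothelium makes, gave 0.38 after SM, where its 4 SM arrays lay above the 3 controls, and 0.12 after SM + MSTF. None of the 3 was called.

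Of 21 other genes known from sinusoidal endothelium, 16 were tested, with 6 fitted higher and 10 lower after SM and a median of -0.07. After SM + MSTF 10 were higher and 6 lower, with a median of 0.04. Ctsl, the lysosomal protease cathepsin L, gave -0.18 after SM and 0.37 for MSTF over SM. A second Ctsl probe differed in sign after SM, with 0.07, and gave 0.46 for MSTF over SM, and neither probe was called. Dnase1l3, a secreted DNase, gave -0.05 after SM and -0.01 after SM + MSTF. Scarb1, a receptor for high-density lipoprotein that hepatocytes also carry, gave -0.19 and -0.35. A second Scarb1 probe gave 0.07 after SM and -0.16 after SM + MSTF. The largest changes in the list were those of Cd36, a fatty acid and scavenger receptor that other liver cells share, which gave 0.83 after SM (limma, adjusted p = 0.165) and 1.15 after SM + MSTF (limma, adjusted p = 0.406). Cd36 was singled out after its values were seen. Its SM and SM + MSTF arrays lay above all controls. The lowest adjusted p of the list after SM was that of Maf (limma, adjusted p = 0.0768), also singled out after its values were seen. Maf gave 0.43 after SM, where its SM arrays lay above all controls, and 0.21 after SM + MSTF.

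Among 24 pan-endothelial genes, 16 were tested, with 6 fitted higher and 10 lower after SM, a median of -0.06 and a range of -0.52 to 1.09. Clec14a, an endothelial surface lectin, gave 0.25 after SM, Thbd, the thrombomodulin gene, -0.13, and Sox18, a transcription factor of endothelium, 0.28. The ends of that range were the transcription factor genes Sox17 and Klf4, both singled out after their values were seen. Sox17 read 5.31, 5.10 and 5.02 log2 in control, 6.07, 7.06, 6.22 and 5.59 in SM, and 4.996, 5.53 and 5.25 in SM + MSTF. Every SM array was above every other array, with a log2 fold change of 1.09 after SM and -0.98 for MSTF over SM, and neither passed the test (limma, adjusted p = 0.0880 and 0.160). Klf4, a factor induced by laminar flow, read 8.28, 8.46 and 8.32 log2 in control, 7.90, 7.59, 7.72 and 8.13 in SM, and 7.94, 8.29 and 8.18 in SM + MSTF, with -0.52 after SM (limma, adjusted p = 0.0973).

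Of the genes that activated endothelium is known to raise, 5 of 10 were tested, and 4 of the 10 were not well above background on any array. All 5 tested were fitted lower after SM, with a median of -0.35, and all 5 higher for MSTF over SM, with a median of 0.34, and 0 were called in either. Vcam1, a leukocyte adhesion molecule, read 9.90, 10.01 and 9.93 log2 in control, 9.39, 9.18, 9.76 and 10.07 in SM, and 9.75, 9.85 and 10.77 in SM + MSTF. Icam1, another adhesion molecule, gave -0.12 after SM and -0.02 after SM + MSTF. Ccl2, a monocyte chemokine gene singled out after its values were seen, gave the largest change of the list, -1.33 after SM (limma, adjusted p = 0.119), with overlapping arrays, and -0.78 after SM + MSTF (limma, adjusted p = 0.586), where all 3 arrays lay below the controls. The chemokine gene Cxcl1 spread from 7.37 to 12.52 log2 over the 3 SM + MSTF arrays alone.

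Lymphatic endothelium, which shares Lyve1, was followed by 4 tested markers of 5, of which 1 was fitted higher and 3 lower after SM and 2 higher and 2 lower for MSTF over SM. The mean signal of the list ran from 6.47 to 6.57 log2 in control, from 6.37 to 6.73 in SM and from 6.34 to 7.10 in SM + MSTF. Their part in the Lyve1 signal was not tested. Prox1, the transcription factor that defines lymphatic endothelium but is also made by hepatocytes, gave -0.39 after SM and 0.50 for MSTF over SM (limma, adjusted p = 0.145 and 0.0976). Reln, which stellate cells also make, gave -0.09 and -0.18, and the chemokine gene Ccl21 gave 0.55 and -0.19. Flt4, the remaining tested marker, is also in the VEGF and angiopoietin list and is not a marker of lymphatic endothelium alone. Named after its values were seen, Flt4 gave -0.22 and 0.40 (limma, adjusted p = 0.370 and 0.143). Its SM arrays lay below all control and all SM + MSTF arrays. Of the stellate cell markers, 9 of 11 were tested, with 4 fitted higher and 5 lower after SM and 2 higher and 7 lower after SM + MSTF, and the median was -0.09 and -0.25. The 3 of highest signal were Col1a2, a chain of type I collagen, at -0.73 and -0.52, Col3a1, of type III collagen, at -0.23 and -0.25, and Lrat, which esterifies retinol, at -0.20 and -0.20. The ends of the list after SM were Col1a1, also of type I collagen, and Dcn, the gene of the matrix proteoglycan decorin. Both were singled out after their values were seen. Col1a1 gave -0.99 after SM (limma, adjusted p = 0.235), where its SM arrays lay below all controls, and -1.04 after SM + MSTF (limma, adjusted p = 0.480). A second Col1a1 probe gave -0.42 and -0.35. Dcn gave 0.33 after SM and 0.56 after SM + MSTF. None of these was called. Of the cholangiocyte markers, 2 of 6 were tested, Krt19 and Epcam, with 0.34 and 0.10 after SM. The medians of the hepatocyte markers were -0.0043 after SM and -0.0042 after SM + MSTF, and those of the housekeeping genes were 0.04 and 0.0056.

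**Figure D4:**
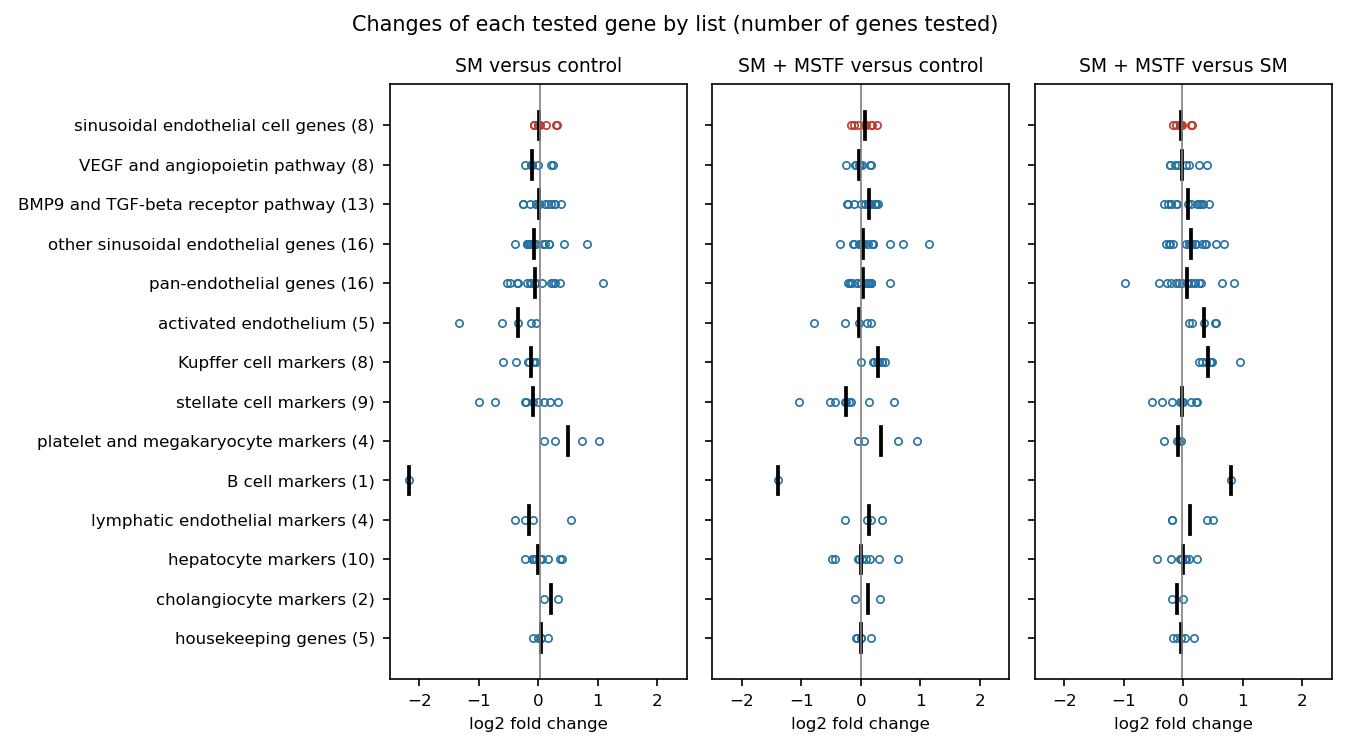
Log2 fold change (horizontal axis) of every tested gene, with 1 open point per gene, for the 8 sinusoidal endothelial cell genes (top row) and the 13 other lists in each comparison, with a black bar for the median of each list and a grey line for the median of all probes tested. The 8 genes lie between -0.17 and 0.32 in all 3 panels, while after SM single genes of other lists reach past 1 in either direction.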

How the data were processed

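Liver RNA of 10 rats was hybridized to 10 arrays. The authors extracted each spot's background-subtracted intensity and its detection marks with Agilent Feature Extraction 10.7, quantile normalized the arrays with GeneSpring, and deposited the resulting log2 values, which served as an alternative here. The intensity as deposited from the scanner files was the starting point. Control spots and non-uniform spots (0 to 4 per array) were left out, and the intensity was quantile normalized, put on the log2 scale and averaged per probe with limma 3.58.1 in R 4.3.3. Probes passed the filter if they were well above background in all arrays of a group, with at least 2 values in each group, which left 22991 of 41012.

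All 3 groups entered a single limma fit, p-values were adjusted over all tested probes by Benjamini-Hochberg, and a probe was called at an adjusted p under 0.05 and at least 1.5-fold. A gene was counted by its probe of highest mean log2 signal. Changes are log2 fold changes, and intervals are 95% confidence intervals of the fit. Within-slide values came from the fit with slide 3 as a block, which leaves SM + MSTF replicate 3 to set against the controls.

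RefSeq accessions (assembly GRCr8) named 17512 probes. The array design used an older assembly, so no coordinates or sequences are given. The members and lists were chosen with earlier results of these data known. Named genes were the members with all their probes and, per list, up to 3 genes by signal, and others are marked as singled out later. The array number limits precision, and within-group correlations of log2 signal across probes were 0.977 to 0.991.

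On simulated data of 22986 probes with 200 changed, the procedure recovered 89.5% of changes of 1.5 log2 units and 42.5% of changes of 0.75 for SM against control, 82.5% and 43% for SM + MSTF against control, and 83.5% and 37.5% for SM + MSTF against SM. Alternatives were other scalings, normexp background correction, filters, tests, replicate and slide blocks, and each array left out in turn. Normexp was run with an offset of 50, which shrinks the log2 changes of dim probes and so lowers the number that reach the fold minimum.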

Additional observations from a re-analysis of the deposited data

Results flagged for a closer look

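Among the 4 SM arrays, 6 of 51 probes examined had an array far from the other 3: its gap to the nearest of them, divided by the range of all 4, exceeded Dixon's critical value. Chance gives such a gap in about 1 probe in 20 where values are normal. The probes share the same 4 arrays and are not independent, so their count was not tested against that share. Lyve1 (gap over range 0.881) was highest on SM replicate 4, at 11.61 log2 against 11.06 to 11.12 on the others, and Gapdh (0.962), a glycolytic enzyme, was highest on the same array. Pecam1 (0.880) was highest on SM replicate 1, at 5.27 against 4.95 to 4.99, and Prox1 (0.941) was lowest there, at 5.42 against 5.78 to 5.81. Smad1 (0.942) was lowest on SM replicate 2, at 10.61 against 11.15 to 11.18. Cr2 (0.954), which never stood well above background, was highest on SM replicate 3.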

How the results depend on the processing

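The number of the 8 genes called stayed at 0 in each comparison under all 24 alternatives that could be computed for it. Of 573 recomputed changes of the 8 genes and Vwf, 529 kept their sign and side of the threshold, 33 changed sign, 10 lost a call and 1 gained one. The sign changes were of small values. In SM versus control, Kdr became -0.012 with the deposited log2 values, Pecam1 0.0395 with 75th percentile scaling, and, with the replicate block, Eng became -0.0486 and Pecam1 0.010. In SM + MSTF versus control, slide as a fixed block gave 0.0780 for Fcgr2b, 0.0367 for Kdr and 0.0036 for Pecam1, and normexp gave -0.0252 for Tek and 0.0063 for Pecam1. In SM + MSTF versus SM, normexp gave 0.0098 for Pecam1 and 0.0165 for Cdh5. With each array left out in turn, values in SM versus control ran from -0.0355 to 0.0237 for Kdr, from -0.0040 to 0.34 for Tek, from -0.0544 to 0.13 for Eng and from -0.10 to 0.0538 for Pecam1. In SM + MSTF versus control they ran from -0.0715 to 0.18 for Lyve1, from -0.12 to 0.31 for Tek and from -0.14 to 0.01 for Pecam1, and in SM + MSTF versus SM from -0.16 to 0.0279 for Fcgr2b, from -0.11 to 0.0305 for Flt1, from -0.25 to 0.17 for Tek and from -0.0764 to 0.0301 for Pecam1. The cause was not tested. All 10 lost calls were those of Vwf in SM versus control: with normexp (-0.32), the methods' t-test after Benjamini-Hochberg adjustment, the replicate block (-0.99, limma adjusted p = 0.0875), slide as a random block (-0.97) and 6 of the arrays left out. The gained call was that of Vwf in SM + MSTF versus SM by the methods' t-test at an unadjusted p. It uses the SM arrays through which the probe came onto the study's list, so it is no independent evidence. Of 790 list medians recomputed, 785 stayed within the pooled SD between arrays.

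The background of all probes moved more. The 553 probes called in SM versus control became 135, 65 and 138 without control replicates 1, 2 and 3, 105, 327, 178 and 255 without SM replicates 1 to 4, 226 with normexp, 342 with no filter on dim probes, 336 with probes well above background on all 10 arrays, 85 with slide as a random block, and 1131 by the methods' t-test, or 320 after Benjamini-Hochberg adjustment. They rose to 714 with only the groups compared in the fit, 717 without SM + MSTF replicate 3 and 644 with no fold minimum. The 290 in SM + MSTF versus SM became 98 and 122 without SM replicates 1 and 3, 115 without SM + MSTF replicate 1, 60 with normexp, 140 with probes well above background on all 10 arrays, 147 with only the groups compared in the fit, 102 with slide as a random block, and 863 by the methods' t-test, or 13 after adjustment. Higher counts there were 378 with 75th percentile scaling, 313 with no fold minimum and 301 without SM replicate 2. The 0 in SM + MSTF versus control by limma, where 2193 passed at an unadjusted p under 0.05 and 285 by the methods' t-test, became 247 without SM + MSTF replicate 3 and 291 with slide as a fixed block, which rests on that array. With the replicate block, in which SM replicate 4 has no partner, 53 probes were called for SM against control, 0 for SM + MSTF against control and 64 for SM + MSTF against SM. Deviations of same-numbered arrays correlated at -0.10 to 0.17. Differently numbered arrays were not correlated for comparison, so these values cannot decide whether the numbers pair the arrays. Slide as a fixed block could not be fitted for SM, whose arrays share 1 slide with no other group.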
